A study of Mus musculus with 18 samples.

Results

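Ephrins, Slits and netrins are guidance cues that steer growing axons and migrating cells, and the genes described here are those encoding these ligands and their receptors. They were chosen by name: every gene annotated as protein-coding whose symbol was an Eph receptor (Epha or Ephb with a number), an ephrin (Efna or Efnb), Slit1, Slit2 or Slit3, Robo1 to Robo4, Ntn1, Ntn3, Ntn4 or Ntn5, Unc5a to Unc5d, Dcc or Neo1. This gave 38 genes of the 51912 in the count table, 22025 of which are protein-coding: 9 EphA receptors, 5 EphB receptors, 5 ephrin-A and 3 ephrin-B ligands, 3 Slits, 4 Robo receptors, 3 netrins (Ntn1, Ntn4 and Ntn5) and 6 netrin receptors. The rule uses no measured value, although it was set with earlier results of these data known. All 38 had at least 10 read pairs over the 18 libraries and were tested, and 29 averaged 1 CPM or more. CPM are read pairs per gene scaled to the library total after its adjustment by edgeR's TMM factor, computed over all 18 libraries.

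The libraries came from primary astrocyte cultures made from an equal number of male and female cortices of postnatal day 0 mice. All animals, and so every group, were hemizygous for the Aldh1l1-EGFP/Rpl10a transgene of line JD130Htz, as offspring of B6;FVB carriers crossed to C57BL/6J mice. In this line the promoter of the astrocyte gene Aldh1l1 drives ribosomal protein L10a fused to a green fluorescent protein. After 14 days to confluence, subculture, a further 6 days and 24 h without serum, dishes were kept for 24 h in serum-free medium with 50 mM ethanol or without it, in sealed chambers. Tagged ribosomes and their RNA were then pulled down with antibodies to the fluorescent protein (translating ribosome affinity purification, TRAP; the IP fraction) from 6 control and 6 ethanol dishes, and total RNA of the same lysate (the input fraction) was sequenced for dishes 4 to 6 of each treatment. Nothing says that the dishes came from separate cultures, so p-values measure the spread between dishes, which may be technical.

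Eph receptors are receptor tyrosine kinases that are switched on by ephrins held on the surface of a neighbouring cell. Ephrin-A ligands are tied to the membrane by a lipid anchor, whereas ephrin-B ligands span it and signal back into their own cell, and EphA and EphB receptors mainly bind the ligands of the same letter. Slits are secreted proteins that repel cells through Robo receptors, and netrins are secreted, laminin-related proteins that attract through Dcc or neogenin (Neo1) and repel through the Unc5 receptors. In the brain, astrocytes use ephrins and Eph receptors at their contacts with synapses and with other astrocytes, and Slit and netrin cues guide both neurons and glia.

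Among the genes on which the ethanol comparisons turn are Ephb6, Robo2, Epha2, Ephb3 and Ephb4, and the stretch just upstream of each gene's start is shown first. Unc5c, which also changed in both fractions, is not shown because its whole promoter window lies inside the gene as GENCODE annotates it. Each was copied from the RefSeq promoter windows of GRCm38.p6, which matched 33 of the 38 genes by symbol, and is written 5′ to 3′ on the gene's strand. The windows run 250 bases upstream of the RefSeq start, and in the 5 stretches shown, bases that the GENCODE annotation places inside the gene were left off. The motif counts over the 33 genes and over all windows used the full 250 bases, also where these lie inside a gene. Capitals mark 3 motifs searched on both strands: the GC box (GGGCGG), the cAMP response element (TGACGTCA) and the CCAAT box (CCAAT). The E-box CACGTG and the TATA box TATAAA were searched too and were not in these 5 stretches.
Ephb6: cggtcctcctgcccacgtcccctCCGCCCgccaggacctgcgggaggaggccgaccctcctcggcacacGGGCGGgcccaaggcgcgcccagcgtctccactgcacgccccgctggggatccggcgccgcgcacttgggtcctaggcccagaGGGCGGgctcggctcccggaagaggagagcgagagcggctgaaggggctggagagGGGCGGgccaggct
Robo2: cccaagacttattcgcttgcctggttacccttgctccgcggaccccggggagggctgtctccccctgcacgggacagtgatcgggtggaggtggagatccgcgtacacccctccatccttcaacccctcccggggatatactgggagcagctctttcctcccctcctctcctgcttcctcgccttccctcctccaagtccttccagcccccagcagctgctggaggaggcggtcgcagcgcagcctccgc
Epha2: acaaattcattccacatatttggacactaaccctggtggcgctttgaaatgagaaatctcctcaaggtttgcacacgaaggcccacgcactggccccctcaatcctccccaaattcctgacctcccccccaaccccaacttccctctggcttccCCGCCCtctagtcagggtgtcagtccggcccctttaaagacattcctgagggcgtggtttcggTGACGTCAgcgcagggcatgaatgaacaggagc
Ephb4: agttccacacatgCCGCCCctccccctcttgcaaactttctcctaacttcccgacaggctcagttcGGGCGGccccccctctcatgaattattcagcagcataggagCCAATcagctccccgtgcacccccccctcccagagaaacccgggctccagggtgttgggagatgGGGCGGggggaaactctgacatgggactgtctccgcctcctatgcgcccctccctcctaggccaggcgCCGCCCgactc
Ephb3: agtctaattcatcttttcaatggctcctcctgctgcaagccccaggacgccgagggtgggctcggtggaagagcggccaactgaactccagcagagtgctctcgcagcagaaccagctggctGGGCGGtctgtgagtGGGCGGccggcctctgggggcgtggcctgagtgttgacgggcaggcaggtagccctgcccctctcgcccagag
In order, they lie at chr6:41605261-41605481 (plus strand), chr16:74411826-74412075 (minus strand), chr4:141300971-141301220 (plus strand), chr5:137349859-137350108 (plus strand) and chr16:21204545-21204754 (plus strand). The Ephb6 stretch is 76.5% G and C with 4 GC boxes, and the Ephb4 stretch also holds 4 GC boxes and 1 CCAAT box. The Epha2 stretch is the poorest in G and C of the 5 (55.6%) and holds the only cAMP response element found among the 33 genes. Of all 32851 RefSeq promoter windows of this length, 1.55% held that element and 32.7% a GC box. The GC box was in 23 of the 33 guidance genes, the CCAAT box in 13 (33.8% of all windows), the TATA box in 2, Efnb2 and Slit2 (12.4%), and the E-box in 1, Epha8 (6.02%). These are not like sets, so no enrichment can be read from them. Each guidance gene gave 1 window, the nearest to its start, while all windows were counted without a choice by gene or gene type. The Robo2 stretch held none of the 5 motifs. A match is a run of letters and does not show that a factor binds there.

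Counted read pairs per library ranged from 74239854 to 132810705 with a median of 84119135. The summed level of 12 astrocyte markers was 2544 to 2635 CPM in control IP and 1602 to 1670.4 CPM in control input libraries, and 10 of the 12 were higher in IP. The summed level of 10 microglial markers was 14.2 to 15.3 and 80.5 to 83.8 CPM in these groups, with 9 lower in IP, and that of 5 fibroblast markers 101 to 116 and 215 to 219 CPM, with 4 lower in IP. Of 8 endothelial markers 6 were below 1 CPM in each group. Of 7 mural markers 3 fell with ethanol in each fraction: the smooth muscle genes Acta2, Tagln and Cnn1, with summed levels of the list of 1810.3 to 1961 CPM in control and 1150.5 to 1374 CPM in ethanol IP libraries. Acta2, at a mean of 1216 CPM over all libraries, Tagln and Cnn1 were higher in IP than in input (log2 0.43, 0.35 and 0.73). Over the list 4 markers were higher in IP and 1, Pdgfrb, was lower (-0.54). Pdgfrb did not pass with ethanol (-0.02 in each fraction). The astrocyte sum was 2650.2 to 2751 CPM in ethanol IP, above every control IP library, with 5 markers risen and 1 fallen in IP and 5 and 4 in input. In ethanol input it was 1659.9 to 1707 CPM and overlapped control input. Glul fell in both fractions, and Aldh1l1 (-0.13, adjusted p = 9.38e-07), Gfap and Aldoc fell in input only. The neuronal sum was lower with ethanol without overlap, at 191 to 201 against 177 to 188 CPM in IP and 161.9 to 164.6 against 150.4 to 154.6 CPM in input, with 1 of 10 markers (Stmn2) fallen in IP and 2 fallen and 1 risen in input. Of these 10 neuronal markers 5 were below 1 CPM in each group. Stmn2 and Eno2 had the highest means over all libraries, 95.9 and 52.7 CPM, and both were higher in IP than in input (log2 0.24 and 0.15). Over the neuronal list 5 markers were higher in IP and 2 lower. Of 9 markers of the oligodendrocyte lineage, 2 rose in IP and 3 in input, Pdgfra and Cspg4 in both, and of the microglial markers 1 rose in IP and 2 in input, Csf1r in both. The endothelial Kdr fell in both fractions, and no fibroblast marker passed. The part of other cell types in the differences below was not tested, and in such bulk samples fewer cells of a type and less RNA per cell cannot be told apart.

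The first question was which guidance genes these cultures expressed. Levels are compared between genes as CPM per kilobase of the longest annotated transcript. In control IP libraries Ntn1, the founding netrin, stood first at 261 ± 4.65 (SD, n = 6), followed by Ntn4, a netrin that binds laminin in basement membranes, at 99.6 ± 2.46. Every Ntn1 value was above every Ntn4 value. Together the 3 netrins made up 55.6% of the summed level of all 38 genes in control IP and 53.9% in control input libraries. The remaining netrin gene, Ntn5, had only 0.0308.

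Receptors for netrin were far lower than the ligand. Neo1, which also binds repulsive guidance molecules, was at 15.8 ± 0.595 and Unc5b, known for its role in vessel branching, at 11.7 ± 0.415. Unc5c stood at 4.0 ± 0.158 and Unc5a at 0.480 ± 0.0421. Dcc, the attractive netrin receptor of axons, was nearly absent (0.00801), as was Unc5d (0.0762). The cultures thus held netrin message and Neo1 and Unc5 receptor message with little or no Dcc.

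Among ephrins, the transmembrane ligands Efnb1 (33.6 ± 1.0) and Efnb2 (28.5 ± 0.268) were highest, and Efnb3, a midline repellent of the spinal cord, was low (1.07 ± 0.107). Of the ephrin-A ligands, Efna5, a cue in topographic maps, was at 14.4 ± 0.467 and Efna4 at 10.8 ± 0.586, and Efna3 (3.50 ± 0.162), Efna1 (1.54 ± 0.163) and Efna2 (0.961 ± 0.133) followed. In control input libraries Efna4 (12.2) was above Efna5 (11.0). Counting on the gene's own strand raised the read pairs of Efna3 and Efna4, as given further on. The leading EphA receptors were Epha4, which binds ephrins of both classes, at 27.2 ± 0.745, and Epha2 at 23.7 ± 0.730. The next in that class, Epha5, had 1.83 ± 0.126, then Epha7 with 0.801 ± 0.0764 and Epha3 with 0.407 ± 0.0590. Epha1, Epha6, Epha8 and Epha10 were below 1 CPM. The EphB receptors were led by Ephb2 (20.0 ± 0.318) and Ephb4, the partner of Efnb2 in vessels (15.3 ± 0.228). Ephb6, whose kinase domain lacks activity, had 9.13 ± 0.270, Ephb3 6.06 ± 0.418 and Ephb1 1.54 ± 0.0489.

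The Slit ligands Slit2 (21.2 ± 0.638) and Slit3 (14.9 ± 0.342) were both present, while Slit1 was at 0.121. Of their receptors, Robo1 (10.8 ± 0.226) and Robo2 (6.63 ± 0.360) led, Robo3, the receptor that lets commissural axons cross the midline, was at 0.781 ± 0.0420, and the endothelial Robo4 at 0.0170. The order depends on the length used: over all exons of a gene instead of its longest transcript, Slit2 moved from rank 7 to rank 15 in control IP libraries, while Ntn1, Ntn4 and Efnb1 kept ranks 1 to 3.

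**Figure D1:**
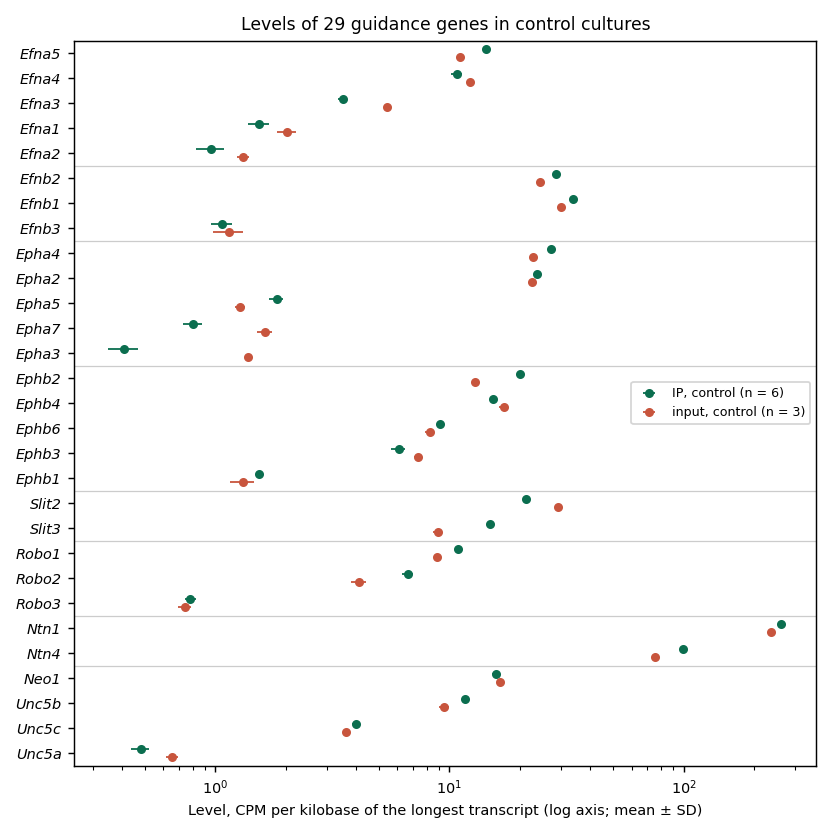
Level of the 29 guidance genes that averaged 1 CPM or more in control cultures, as CPM per kilobase on a log axis, with points for the mean and bars for the SD over 6 IP (green) and 3 input (orange) libraries. Ntn1 and Ntn4 stand to the right of all others in both fractions, with means of 261 and 99.6 in IP.

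The comparison of IP with input asked which guidance messages were over- or under-represented on tagged ribosomes relative to the RNA of the whole culture. Over all 18 libraries, 28 of the 38 genes were called (51.0% of all 24495 genes tested were), of which 16 were higher in IP (25.2% of all genes) and 12 lower (25.8% of all genes), by the quasi-likelihood test of edgeR with adjustment over all genes tested. The median log2 difference was 0.06 over the 38 genes and -0.03 over all genes. Genes with more reads pass such a test more easily: of the 13839 genes with at least 1 CPM in 3 libraries, 38% were higher and 39.2% lower. The libraries of IP and input did not overlap for 19 of the 38 genes (25.2% of all genes).

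The ephrin-A ligands were the class that leaned most to input. Of the 5, 4 were lower in IP and only Efna5 was higher, at 0.37 ± 0.02 (log2, SE; adjusted p = 4.99e-22). Efna3 was at 8.32, 7.91, 8.58, 8.84, 8.02 and 7.94 CPM in the control IP dishes 1 to 6 and at 8.87, 7.79, 8.71, 7.61, 7.68 and 7.64 in the ethanol IP dishes, against 12.8, 12.9 and 12.7 and 13.6, 13.4 and 13.3 in control and ethanol input. Every IP library lay below every input library, with a log2 difference of -0.69 ± 0.04 (adjusted p = 3.91e-25). Efna2 was at 2.26, 1.75, 1.67, 2.11, 2.39 and 2.10 CPM in control IP and 2.24, 2.27, 2.22, 2.65, 2.05 and 1.87 in ethanol IP, and at 2.75, 2.98 and 2.65 and 3.0, 3.52 and 4.23 in the inputs, again without overlap (-0.58 ± 0.08, adjusted p = 1.75e-09). Efna1 (-0.37) and Efna4 (-0.19) were also lower. Part of Efna3 and Efna4 overlaps exons of genes on the opposite strand, and counting each gene on its own strand raised their read pairs by 53.9% and 21.7%, with both still lower in IP.

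Of the ephrin-B ligands, Efnb1 (0.18 ± 0.02) and Efnb2 (0.22 ± 0.02) were higher in IP and Efnb3 lower (-0.22 ± 0.07, adjusted p = 0.00461; 0.302 in the control libraries alone).

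EphA receptors moved furthest apart. Epha3 had 2.18, 2.89, 1.96, 2.04, 2.36 and 2.39 CPM in control IP and 2.22, 1.91, 2.60, 2.36, 2.37 and 2.60 in ethanol IP, against 7.55, 7.98 and 7.96 in control and 8.20, 7.58 and 8.05 in ethanol input. No IP library reached the lowest input library, and the log2 difference was -1.77 ± 0.06 (adjusted p = 1.11e-38). Epha7, a receptor of ephrin-A ligands, had 5.01, 4.70, 5.94, 5.15, 5.83 and 5.80 CPM in control IP and 4.85, 4.11, 4.88, 4.82, 5.35 and 4.83 in ethanol IP, and 10.7, 11.9 and 10.3 and 9.79, 10.3 and 10.4 in the inputs. It too was lower in every IP library than in any input library (-1.06 ± 0.05, adjusted p = 7.09e-31). In the opposite direction, Epha5 had 13.6, 13.7, 12.4, 12.7, 13.0 and 15.0 CPM in control IP and 13.4, 15.3, 14.3, 14.8, 15.9 and 13.8 in ethanol IP, against 9.86, 9.13 and 9.10 and 9.58, 10.3 and 9.64 in the inputs, so that all IP libraries were above all inputs (0.53 ± 0.04, adjusted p = 2.85e-19). Epha4 was also higher in IP (0.26 ± 0.02), whereas Epha2 differed by 0.04 ± 0.02 and did not pass (adjusted p = 0.0768; 0.0484 without ethanol IP replicate 2). The summed microglial and fibroblast markers were lower in IP in the same libraries, as given above.

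The largest EphB difference was that of Ephb2, a receptor known for its role at glutamatergic synapses. Its values were 224, 215, 216, 217, 215 and 220.5 CPM in control IP and 216, 218, 216, 219, 213 and 215 in ethanol IP, against 139, 137 and 145.9 and 136, 133 and 134 in the inputs. The fractions did not overlap (0.65 ± 0.02, adjusted p = 2.61e-42). Ephb1 (0.33 ± 0.05) and Ephb6 (0.15 ± 0.03) were higher in IP as well, and Ephb3 (-0.22 ± 0.03) and Ephb4 (-0.10 ± 0.02, adjusted p = 0.000277) were lower. The Ephb4 difference did not pass in the ethanol libraries alone (adjusted p = 0.568).

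Slit2 and Slit3 both passed, in opposite directions. Slit3 had 77.9, 80.5, 78.8, 75.3, 76.6 and 78.0 CPM in control IP and 84.3, 78.0, 73.0, 82.6, 86.1 and 90.2 in ethanol IP, against 44.6, 46.6 and 48.8 and 49.3, 50.9 and 49.9 in the inputs, with every IP library higher (0.72 ± 0.03, adjusted p = 8.05e-24). Slit2 was lower in IP, at -0.45 ± 0.02 on the log2 scale (adjusted p = 2.56e-32), with 204 to 222 CPM in control IP and 288 to 293 CPM in control input libraries. Robo2 was higher in IP, with 53.7, 59.1, 55.7, 54.1, 57.3 and 61.8 CPM in control IP and 65.6, 62.8, 61.2, 65.2, 69.2 and 69.5 in ethanol IP and with 32.3, 37.1 and 36.0 and 36.6, 39.6 and 41.7 in the inputs, without overlap (0.71 ± 0.03, adjusted p = 5.42e-17). Robo1 was higher by 0.29 ± 0.02, and Robo3 differed by 0.08 ± 0.06 (adjusted p = 0.351).

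Of the netrin genes, Ntn4 (0.39 ± 0.02) and Ntn1 (0.15 ± 0.02) were higher in IP. Ntn5 was lower (-1.81 ± 0.37, adjusted p = 2.13e-05), but it had only 150 read pairs over all libraries. Unc5b (0.33 ± 0.03) and Unc5c (0.13 ± 0.03) were higher in IP and Unc5a lower (-0.49 ± 0.08), while Neo1 differed by -0.02 ± 0.02 and did not pass (adjusted p = 0.424). With library totals in place of edgeR's scaling, which lowered the median of all genes from -0.03 to -0.08, Neo1 was called lower in IP (-0.07, adjusted p = 0.00586), as it was among genes of at least 1 CPM (-0.05, adjusted p = 0.0362) and in the control libraries alone (-0.08, adjusted p = 0.00845). For Epha1 the difference (0.41 ± 0.17, adjusted p = 0.0368) did not pass when only reads on its own strand were counted (adjusted p = 0.811), and the call ended without any 1 of 9 libraries, namely input control 6, input ethanol 4 to 6, IP control 3 and 6, and IP ethanol 1, 5 and 6 (adjusted p from 0.0555 to 0.114). Its exons overlap those of Zyx on the opposite strand by 236 bases. The remaining genes, Epha6, Epha8, Epha10, Slit1, Robo4, Dcc and Unc5d, were below 1 CPM and did not pass.

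**Figure D2:**
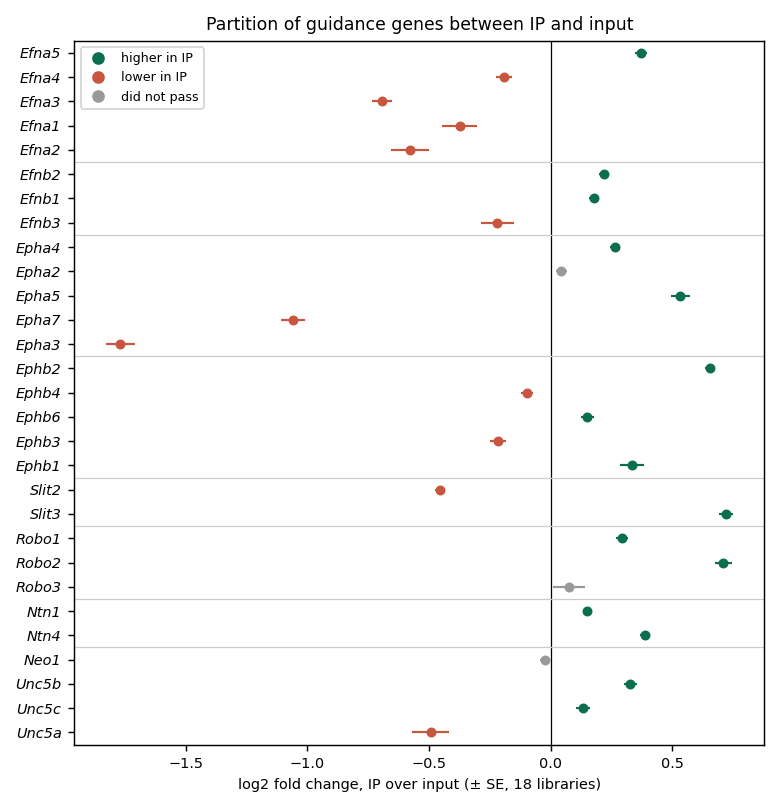
Log2 difference between IP and input for the 29 guidance genes that averaged 1 CPM or more, grouped by class, with points for the estimate over 18 libraries and bars for its SE. Green genes were higher in IP, orange genes lower and grey genes did not pass; Slit3 and Robo2 lie furthest right at 0.72 and 0.71, and Epha3 and Epha7 furthest left at -1.77 and -1.06.

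The ethanol comparisons asked which guidance genes changed within each fraction after 24 h of 50 mM ethanol. In IP, 14 of the 38 genes were called (21.4% of all genes tested were): 13 rose (11.9% of all genes) and 1, Epha2, fell (9.48%). In input 7 were called (15.0% of all genes): 5 rose (7.21%) and 2 fell (7.78%). Of the 13839 genes with at least 1 CPM in 3 libraries, 20.4% rose and 18.6% fell in IP and 12.4% rose and 13.7% fell in input. The median log2 change of the 38 genes was 0.07 in IP and 0.04 in input, against 0.01 and -0.00 over all genes. With trends of the fold changes with GC content and transcript length removed, the IP counts became 8 risen and 4 fallen, as the calls for Epha5, Ephb1, Robo1, Slit2, Efnb2 and Unc5b ended, Efna4 was called risen and Epha7, Ephb2 and Ntn1 were called fallen. Against a fold change of 1.2 none of the 38 genes passed in either fraction.

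Both fractions gave a call for 5 genes, in the same direction each time (10.8% of all genes were called in both): Ephb6, Unc5c, Robo2 and Ntn4 rose and Epha2 fell. The input and IP libraries of a dish share their lysate, so the fractions are not independent repeats.

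Of the genes called in IP, Ephb6 rose most. Its level in the IP dishes 1 to 6 was 35.8, 33.5, 33.8, 33.2, 34.7 and 35.0 CPM in control and 38.8, 42.6, 42.4, 43.1, 40.9 and 45.2 CPM with ethanol, and in the input dishes 4 to 6 it was 29.9, 32.5 and 30.4 and 36.8, 38.7 and 37.0 CPM. In both fractions every ethanol library was above every control library. The log2 change was 0.30 ± 0.03 in IP (adjusted p = 6.20e-11), a rise of 23.3%, and 0.26 ± 0.04 in input (adjusted p = 7.40e-10). In IP, 5 of the 38 genes had treatments that did not overlap (9.97% of all genes), and in input 13 did (27.3% of all genes), with only 3 dishes a side.

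Ephb3 and Ephb4 rose in IP and did not pass in input; the test of that difference is given further on. Ephb3 was at 27.6, 31.4, 29.4, 29.7, 25.6 and 29.0 CPM in control IP and 31.5, 34.9, 32.2, 32.2, 32.5 and 32.8 CPM in ethanol IP libraries, all ethanol values lying above the highest control value, and rose by 0.19 ± 0.04 (adjusted p = 4.83e-05). In input it stood at 34.5, 33.8 and 36.2 and 37.4, 34.5 and 36.4 CPM, overlapping, with a change of 0.04 ± 0.04 (adjusted p = 0.598). Ephb4 was tight in control IP at 67.0, 65.4, 68.0, 65.8, 66.0 and 67.2 CPM and reached 70.3, 74.0, 75.4, 75.7, 72.7 and 77.1 CPM with ethanol, again without overlap, a rise of 0.16 ± 0.03 (adjusted p = 2.46e-06). Its input values were 71.2, 73.6 and 77.5 CPM in control and 77.6, 75.6 and 73.1 CPM in ethanol dishes and overlapped (0.01 ± 0.03, adjusted p = 0.833, 95% interval -0.04 to 0.07).

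Ephb1, the least abundant of the class, rose by 0.16 ± 0.05 in IP (adjusted p = 0.0171), a call that ended without ethanol replicate 4 (adjusted p = 0.0561), and was at -0.06 ± 0.09 in input (adjusted p = 0.742). The Ephb1 call in IP also ended in replicates 4 to 6 alone (adjusted p = 0.238) and in replicates 1 to 3 alone (adjusted p = 0.15). Ephb2 did not pass in IP (-0.00 ± 0.02, adjusted p = 0.932, 95% interval -0.05 to 0.04) and fell in input (-0.08 ± 0.02, adjusted p = 0.0128), with the input values given above not overlapping between treatments. That call was lost without control input replicate 6, where Ephb2 was highest (-0.05, adjusted p = 0.292), and without ethanol input replicate 5 (adjusted p = 0.0705). The summed level of the 5 EphB receptors was 52.1 ± 0.606 CPM per kilobase in control and 56.7 ± 1.25 in ethanol IP libraries (SD, n = 6 each), and 46.8 ± 1.19 and 48.5 ± 0.666 in input libraries (SD, n = 3 each).

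Epha2, a receptor common in epithelia and in migrating cells, was the one guidance gene that fell in both fractions. It had 95.1, 96.6, 92.3, 89.8, 89.3 and 92.6 CPM in control IP and 80.7, 81.2, 82.9, 84.0, 87.9 and 87.3 CPM in ethanol IP libraries, and 86.1, 88.9 and 89.7 and 80.3, 84.0 and 81.7 CPM in the inputs. Its ethanol libraries lay below the control libraries throughout, with changes of -0.13 ± 0.03 in IP (adjusted p = 8.23e-05) against -0.12 ± 0.03 in input (adjusted p = 0.000323). The IP call did not pass in replicates 4 to 6 alone (adjusted p = 0.164). Epha5 rose in IP by 0.13 ± 0.05 (adjusted p = 0.0344), a call that ended without any 1 of control replicates 1 to 5 or of ethanol replicates 2, 4 and 5 (adjusted p from 0.0508 to 0.143). It also ended with DESeq2 (adjusted p = 0.0512), in replicates 4 to 6 alone (adjusted p = 0.144) and in replicates 1 to 3 alone (adjusted p = 0.257). The most abundant receptor of the class, Epha4, did not pass in either fraction (0.07 and 0.03), and neither did Epha7 (-0.16 and -0.12) or Epha3 (0.04 and 0.01). In IP, Epha4 passed without control replicate 5 or ethanol replicate 3 (adjusted p = 0.0321 and 0.0181), and Epha7 without control replicate 1 or 2 or ethanol replicate 5 (0.0466, 0.024 and 0.0328).

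Of the ephrin ligands, Efnb2 was called in IP at the edge of the threshold (0.07 ± 0.02, adjusted p = 0.0495) and kept that call under only 3 of 23 alternatives, losing it without any 1 of the 6 control libraries or of ethanol replicates 2 to 5 (adjusted p from 0.0644 to 0.164). Efnb1 was at 0.00 in IP and -0.06 in input and Efnb3 at 0.01 and 0.21, none passing, although in input Efnb1 did without ethanol replicate 4 (-0.09, adjusted p = 0.0171) and Efnb3 without control replicate 5 (0.34, adjusted p = 0.042). Efna2 rose in input by 0.34 ± 0.12 (adjusted p = 0.0241), where the library values given above did not overlap, but ethanol input replicate 6 carried much of it: without that library the change was 0.21 (adjusted p = 0.362), and the call also ended without control replicate 4 or 6 (adjusted p = 0.0713 and 0.114). The Efna2 call in input was lost too with DESeq2 (adjusted p = 0.0653) and with edgeR's newer quasi-likelihood method (adjusted p = 0.0549). In IP Efna2 was at 0.13 ± 0.10 (adjusted p = 0.385). Efna1, Efna3, Efna4 and Efna5 did not pass in either fraction, with changes from -0.03 to 0.13 in IP and from 0.03 to 0.07 in input.

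Robo2 rose in both fractions, by 0.21 ± 0.03 in IP (adjusted p = 2.46e-06) against 0.15 ± 0.04 in input (adjusted p = 0.00119). From the values given above, 1 control IP library, replicate 6 with 61.8 CPM, lay above the lowest ethanol IP library, and in input the treatments also overlapped. The input call was lost without control replicate 4 (adjusted p = 0.152) and without ethanol replicate 6 (adjusted p = 0.0893). It was also lost among genes of at least 1 CPM in 3 libraries (adjusted p = 0.0676) and with edgeR's newer quasi-likelihood method (adjusted p = 0.0878). Robo1 rose in IP by 0.09 ± 0.03 (adjusted p = 0.0248), and this call ended without any 1 of control replicates 1, 3, 4 and 6 or of ethanol replicates 4 to 6 (adjusted p from 0.0506 to 0.109). Nor did Robo1 pass in IP with DESeq2 (adjusted p = 0.059) or in replicates 1 to 3 alone (0.02, adjusted p = 0.875). Slit2 rose in IP by 0.09 ± 0.03 (adjusted p = 0.00764), a call that ended without control replicate 3 (adjusted p = 0.0547), and was at 0.04 ± 0.02 in input (adjusted p = 0.337). The Slit2 call in IP also ended in replicates 1 to 3 alone (adjusted p = 0.134). Slit3 did not pass in either fraction (0.09, adjusted p = 0.0832, and 0.09, adjusted p = 0.0569). It passed in IP in replicates 4 to 6 alone, at 0.17 (adjusted p = 5.70e-05), with no filter on low counts (adjusted p = 0.0231) and without ethanol replicate 2 or 3 (adjusted p = 0.0424 and 0.00158), and in input without control replicate 6 (adjusted p = 0.021). Robo3 was at -0.07 and -0.11 and did not pass.

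Among the netrin receptors, Unc5c (chr3:141465216-141834924, GRCm38) rose in both fractions. It had 38.5, 38.0, 37.3, 41.0, 39.8 and 37.1 CPM in control IP and 46.6, 41.4, 42.8, 45.0, 49.2 and 48.2 CPM in ethanol IP libraries, and 35.4, 35.3 and 34.4 and 39.6, 41.5 and 42.8 CPM in the inputs. All ethanol libraries were above all control libraries of their fraction. The changes were 0.24 ± 0.03 in IP (adjusted p = 3.41e-07) against 0.23 ± 0.04 in input (adjusted p = 5.40e-08). Neo1 rose in IP by 0.14 ± 0.03 (adjusted p = 0.000105), with a lowest value of 110.0, a median of 117 and a highest value of 122 CPM in control and a lowest value of 119, a median of 128 and a highest value of 136 CPM in ethanol libraries, and was at 0.04 ± 0.02 in input (adjusted p = 0.374). Unc5b rose in IP by 0.12 ± 0.03 (adjusted p = 0.00193) but did not pass in replicates 1 to 3 alone (adjusted p = 0.825). Unc5a, at 1.92 ± 0.168 CPM in control IP libraries, had changes of 0.23 ± 0.10 and 0.29 ± 0.12 that did not pass (adjusted p = 0.0804 and 0.0874), the first of which did without control or ethanol replicate 5 (adjusted p = 0.0484 and 0.0146).

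Of the netrin ligands, Ntn4 rose by 0.07 ± 0.02 in IP (adjusted p = 0.017) against 0.07 ± 0.02 in input (adjusted p = 0.0281), with 351 to 377 CPM in control and 367 to 399.8 CPM in ethanol IP libraries, which overlap. The IP call ended without any 1 of control replicates 1 to 3 or of ethanol replicates 5 and 6 (adjusted p from 0.0586 to 0.104), and the input call when any 1 of control replicates 4 and 5 or ethanol replicates 5 and 6 was left out (adjusted p from 0.0934 to 0.334). With DESeq2 (adjusted p = 0.056) and with edgeR's newer quasi-likelihood method (adjusted p = 0.0654) the input call was lost as well. The Ntn4 call in IP was lost in replicates 4 to 6 alone (adjusted p = 0.137) and in replicates 1 to 3 alone (adjusted p = 0.149). Ntn1, by far the most abundant, did not pass (0.02 in IP with a 95% interval of -0.03 to 0.06, and -0.03 in input with -0.07 to 0.01). The 9 genes below 1 CPM did not pass in either fraction (Epha6 did in IP without ethanol replicate 5, adjusted p = 0.0474). Smooth muscle genes of the mural list and the neuronal sum were lower, and the astrocyte sum in IP higher, with ethanol in the same libraries, as given above; their part was not tested.

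**Figure D3:**
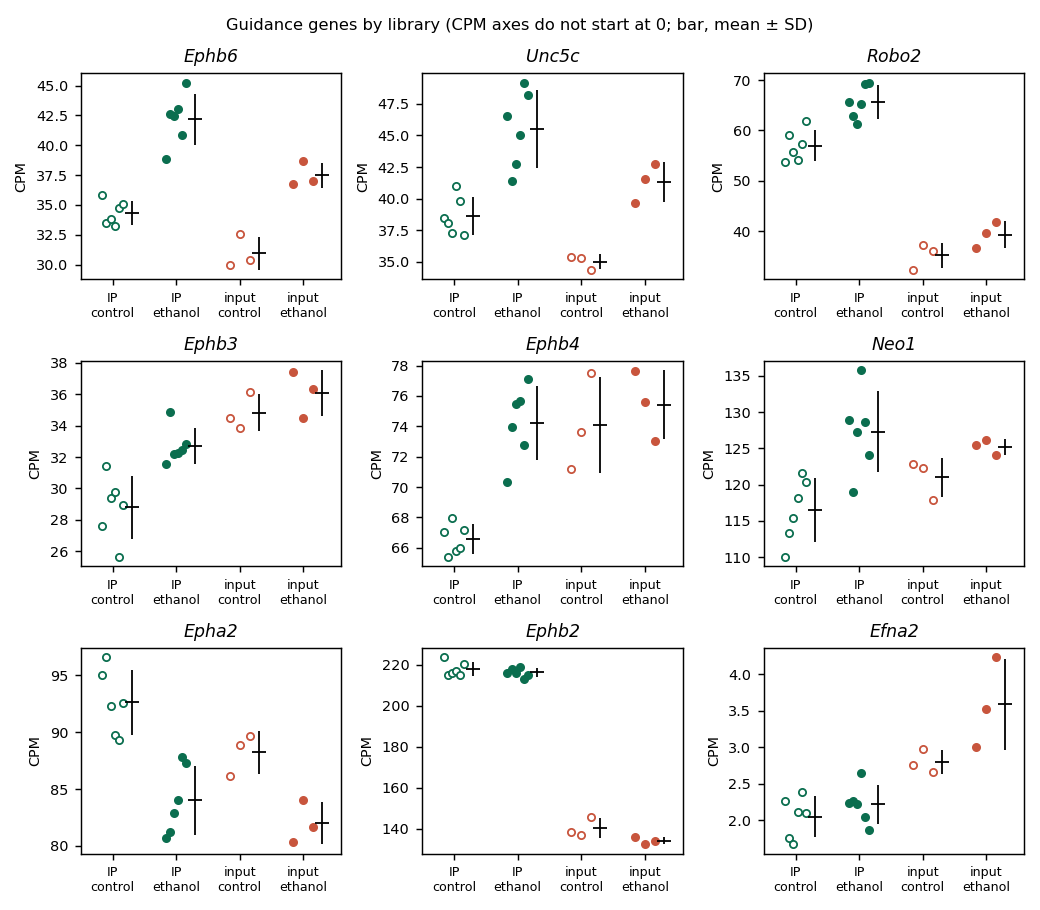
CPM of 9 guidance genes in every library, with open circles for control and filled circles for ethanol dishes, green for IP and orange for input, and a bar for the mean ± SD; the axes do not start at 0. For Ephb6, Unc5c and Epha2 the treatments do not overlap in either fraction, for Ephb3 and Ephb4 only the IP libraries separate, and for Ephb2, Efna2 and Neo1 only the input libraries; Robo2 overlaps in both.

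**Figure D4:**
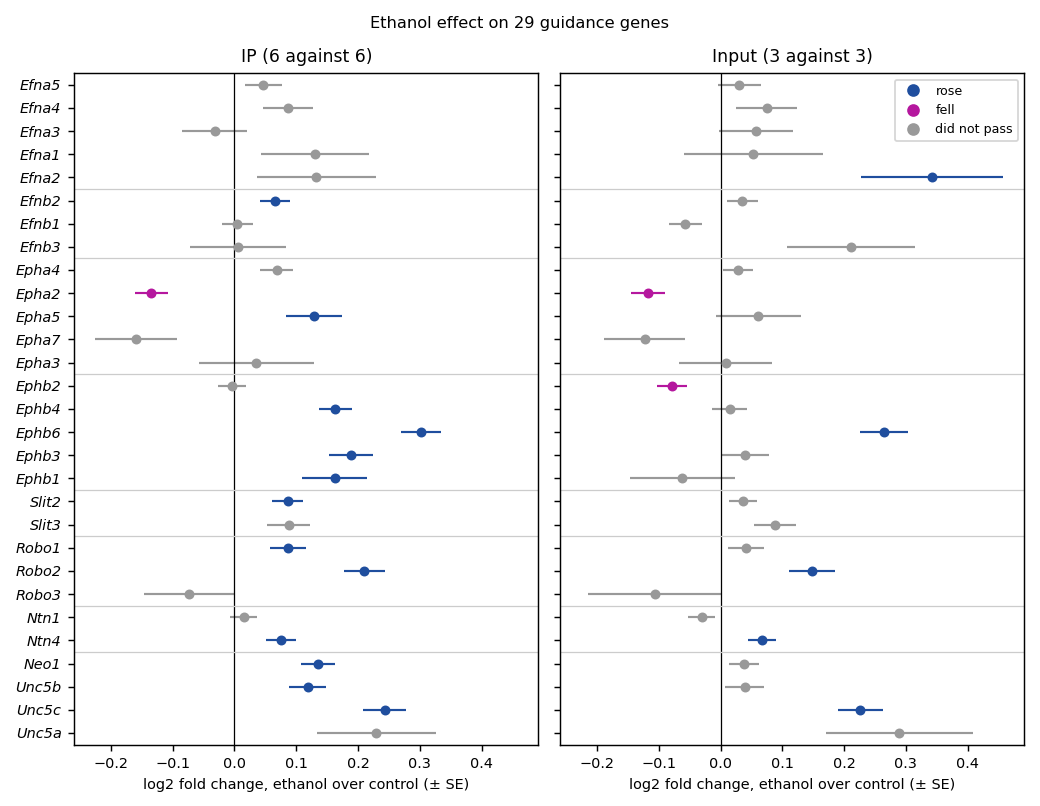
Log2 change with ethanol of the 29 guidance genes that averaged 1 CPM or more, in IP (left, 6 against 6 dishes) and input (right, 3 against 3), with bars for the SE. Blue genes rose (13 in IP, 5 in input), magenta genes fell (1 and 2) and grey genes did not pass; Ephb6 and Unc5c lie well to the right in both panels, at 0.30 and 0.24 in IP.

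A gene called in 1 fraction only need not differ between fractions, so the difference of the ethanol effects was tested itself. Over all 18 libraries it gave no call for any of the 24495 genes (0.0% called, 1459 genes at an unadjusted p under 0.05, and 2 genes called by DESeq2, neither a guidance gene). For Ephb4 the effect in IP exceeded that in input by 0.14 ± 0.04 (adjusted p = 0.675) and for Unc5b by 0.07 ± 0.05 (adjusted p = 0.897). With the dish as a block over the 12 libraries of the 6 dishes that gave both fractions, 102 genes were called (0.416% of all genes). Among them were Ephb4 (0.18 ± 0.04, adjusted p = 0.0213) and Unc5b (0.18 ± 0.05, adjusted p = 0.0326). Ephb3 was not called in that fit (0.18 ± 0.06, adjusted p = 0.165). Within dishes 4 to 6, Ephb4 went from 71.2, 73.6 and 77.5 CPM in input to 65.8, 66.0 and 67.2 CPM in IP of the control dishes, and from 77.6, 75.6 and 73.1 to 75.7, 72.7 and 77.1 CPM in the ethanol dishes. Unc5b went from 52.5, 56.7 and 57.7 to 65.9, 66.4 and 69.4 CPM in the control and from 54.4, 59.4 and 59.1 to 76.9, 75.5 and 80.0 CPM in the ethanol dishes. Neither was called once trends with GC content and length were also removed (0.12, adjusted p = 0.252, and 0.11, adjusted p = 0.438).

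**Figure D5:**
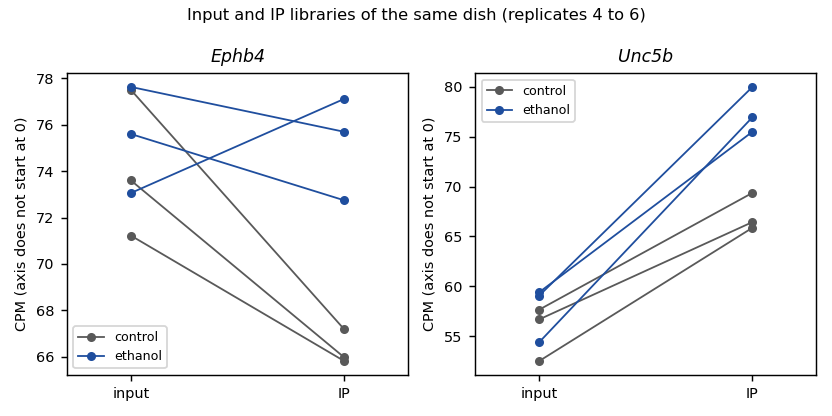
CPM of Ephb4 and Unc5b in the input and IP library of the same dish, joined by a line, for 3 control (grey) and 3 ethanol (blue) dishes; the axes do not start at 0. In IP the ethanol dishes lie above the control dishes for both genes (72.7 to 77.1 against 65.8 to 67.2 CPM for Ephb4), while in input they overlap.

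Other genes of these pathways were followed as 3 lists, to be read against the shares of all genes given above: 11.9% rose and 9.48% fell in IP, 7.21% and 7.78% in input, and 25.2% were higher and 25.8% lower between fractions. Most genes of the lists averaged 1 CPM or more. Of the 13839 genes with at least 1 CPM in 3 libraries, 20.4% rose and 18.6% fell in IP and 12.4% and 13.7% in input. Between fractions 38% of them were higher in IP and 39.2% lower. Of 24 Eph and ephrin effectors, 6 rose and 1 fell in IP and 3 rose and 2 fell in input, with a median log2 change of 0.05 and 0.01. Rin1, an effector of Ras that acts with Epha4, fell in both fractions (-0.23, adjusted p = 1.61e-09, and -0.21, adjusted p = 1.34e-09). Of 16 Slit and Robo effectors, 2 rose and 3 fell in each fraction, and of 22 netrin partners and effectors 5 rose and 2 fell in IP and 1 rose and 3 fell in input. Between fractions, 13 of the Eph and ephrin effectors were higher in IP and 7 lower, against 12 and 3 of the Slit and Robo effectors and 15 and 4 of the netrin list.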

How the data were processed

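RNA from the IP and input fractions was made into stranded total RNA libraries after ribosomal RNA depletion and sequenced as read pairs. The deposited values are raw counts of read pairs per gene that the authors obtained with Trimmomatic and STAR on GRCm38 with Ensembl genes (SAMtools is also named; versions are not given in the sources used here). STAR's unstranded counts were used, as in the authors' table of the whole series, which equalled the single-library files for every gene; 0 columns belonged to other samples. On average 5.5% of reads were ambiguous between genes and 3.6% mapped to several places, and 4.35% of the pairs assigned to genes were on the other strand. The authors' own comparisons were not used.

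A gene was tested if its counts summed to 10 or more (24495 genes). Tests were quasi-likelihood F-tests of edgeR 4.0.16 in R 4.3.3 with TMM scaling and Benjamini-Hochberg adjustment over all genes tested, and a gene was called at an adjusted p below 0.05. The IP and input libraries were fitted separately for ethanol, and together, with treatment and fraction, for IP against input and for the difference of the ethanol effects. Errors of fold changes are SE from the fit. The alternatives were DESeq2 1.42.0, library totals, other filters, reads on the gene's own strand, replicate or dish as block, removal of GC and length trends (99.7% of tested genes had a length), a test against a fold change of 1.2, subsets of dishes, each library left out, and, chosen after seeing the data, edgeR's newer quasi-likelihood method.

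In data simulated from these libraries over 24495 genes, 85% of genes changed by 1.2-fold were recovered for ethanol in IP, 69% in input and 83% for IP against input. The changed genes were drawn only from genes with many reads. These shares therefore do not describe guidance genes below 1 CPM or changes smaller than 1.2-fold. Of the genes called in the simulation, 7.07% were unchanged genes for ethanol in IP, 2.96% in input and 5.67% for IP against input. Far fewer genes were changed in the simulation than were called in the data. Both kinds of share depend on that number, so they are not rates for these data. IP and input libraries with one number come from one dish by the study's methods, and their deviations from the group means correlated at 0.0495 to 0.148, so a fit with the dish as a block was made as an alternative for the fraction comparisons, over the 12 libraries of dishes with both fractions. No pair of replicates agreed within sampling noise.

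The genes and lists were chosen with earlier results of these data known. Every guidance gene is named. Values of each library are given for those called with ethanol whose treatments do not overlap in that fraction, and for the 4 genes with the largest and the 4 with the smallest difference of IP and input among those with 1 CPM or more. Genes of the 3 pathway lists reported are named where called in both fractions with a log2 change of at least 0.2 in either, and the values of Neo1, Ntn4 and Unc5b and the names of marker genes were added after their values were seen. A further list of pathway genes is not reported here. Gene positions, lengths and overlaps are from GENCODE M21 (GRCm38), and promoter windows from RefSeq (GRCm38.p6).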

Additional observations from a re-analysis of the deposited data

Results flagged for a closer look

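In 76 groups of 6 libraries (38 genes in control and ethanol IP), 2 held a library far from the other 5 by Dixon's criterion, a gap that chance gives in about 1 of 20 groups. Ephb1 was at 7.65 CPM in control IP replicate 5, against 7.02 to 7.21 CPM in the other control IP libraries. Robo3 was at 4.52 CPM in ethanol IP replicate 6, against 3.32 to 3.71 CPM in the other ethanol IP libraries, and it did not pass in any comparison.

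The ethanol effects on Ephb4 and Unc5b differed between IP and input when the dish was a block, by 0.18 each on the log2 scale (adjusted p = 0.0213 and 0.0326). Neither difference passed in the fit over all 18 libraries.

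Reads on the opposite strand made up 84.2% of the assigned read pairs of Epha1 and 70.7% of those of Robo4, against 4.35% over all genes. Both genes were below 1 CPM, and Epha1 overlaps exons of Zyx.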

How the results depend on the processing

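For ethanol in IP, removal of GC and length trends gave 8 guidance genes risen and 4 fallen, and Ntn1 turned from 0.02 to -0.051 (adjusted p = 0.0458). A test against a fold change of 1.2 left 95 genes in IP, 55 in input and 4936 for IP against input, with 0 guidance genes risen and 0 fallen for ethanol in either fraction and 7 higher and 7 lower for IP against input. Replicates 4 to 6 alone gave 0 guidance genes fallen in IP, and replicates 1 to 3 alone 2995 genes, with 6 guidance genes risen. For ethanol in input, DESeq2 gave 3 and the newer quasi-likelihood method 2 guidance genes risen. Leaving out 1 library gave 8 to 14 guidance genes risen and 1 to 3 fallen in IP (4616 to 5244 genes in all), 2 to 5 risen and 1 to 3 fallen in input (2861 to 3164 genes), 15 to 17 higher and 12 lower for IP against input (12069 to 12503 genes), and 0 to 1 genes, none of them a guidance gene, for the difference of the ethanol effects. For that difference DESeq2 gave 2 genes.

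Control and ethanol dishes have no link but the number: deviations of same-numbered libraries correlated at -0.104 to 0.221 in IP and at 0.0195 to 0.0657 in input, and 3 of 12 IP and 5 of 6 input libraries correlated best with their own number. With this number as a replicate block, 5782 genes were called in IP, with 15 guidance genes risen and 2 fallen, and 3829 in input, with 6 risen and 2 fallen. With the dish as a block, 11659 genes were called between IP and input, with 16 guidance genes higher and 12 lower, and 102 genes for the difference of the ethanol effects, with 2 guidance genes higher. The dish block with GC and length trends removed gave 37 genes. In other alternatives, the Ephb3, Ephb4, Ephb6, Robo2, Neo1 and Unc5c calls in IP and the Epha2, Ephb6 and Unc5c calls in input were lost only in the test against a fold change of 1.2. The causes were not tested. With few reads, no change with ethanol can be read for the 9 guidance genes below 1 CPM. Of these, Ntn5 and Epha1 were called between IP and input, also on few reads, as given above.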
